A study of Rattus norvegicus with 12 samples.

Results

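The 8 genes described here belong to the cellular defence against reactive oxygen, and all were measured in RNA co-precipitated with Cpeb4 and in the matching total RNA of neonatal rat heart muscle cells. They were taken by Ensembl identifier from a table of 32883 genes: Sod1 (ENSRNOG00000002115), Sod2 (ENSRNOG00000019048), Cat (ENSRNOG00000008364), Hmox1 (ENSRNOG00000014117), Nqo1 (ENSRNOG00000012772), Gclc (ENSRNOG00000006302), Nfe2l2 (ENSRNOG00000001548) and Txnip (ENSRNOG00000021201). The symbols come from the list that defines the set, since neither the count table nor the reference tables pair these identifiers with names. All 8 were among the 10491 genes that passed the filter on low counts.

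Nfe2l2 encodes Nrf2, the transcription factor at the centre of the response. Keap1 holds Nrf2 in the cytoplasm and directs its degradation. Oxidants or electrophiles release it, and with small Maf proteins it binds antioxidant response elements and raises genes such as Hmox1, Nqo1 and Gclc. Sod1, Sod2 and Cat remove superoxide and hydrogen peroxide more directly, and Txnip works against this defence by binding and inhibiting thioredoxin. Heart muscle cells depend on these enzymes because their dense mitochondria produce superoxide. Cpeb4 is an RNA-binding protein that recognises uridine-rich elements near the ends of mRNAs and regulates their polyadenylation and translation.

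The cells were ventricular cardiomyocytes of Wistar rats of 1 to 2 days, isolated by trypsin digestion and a Percoll gradient. There were 4 groups of 3 libraries: Cpeb4 precipitate (IP) of cells given phenylephrine (PE) for 24 h, input total RNA of PE cells, IP of mock-treated cells and input of mock-treated cells. PE is an agonist of alpha-1 adrenergic receptors that induces hypertrophic growth of cardiomyocytes. Lysates were incubated with an antibody against Cpeb4, which was then captured on beads, and no precipitate made without that antibody was analysed here. Libraries were built by 3′ end sequencing, so a transcript is counted at its end. The labelled cell type could not be checked against marker genes, because identifiers could not be paired with symbols.

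Library totals ranged from 1423334 to 30216559 counts. Of the genes at 20 to 50 counts-per-million (CPM) in the other libraries of their type, 5.83% had 0 counts in mock IP replicate 2, 2.65% in mock input replicate 2 and 2.28% in PE input replicate 1, against at most 0.27% in the other 9 libraries. Unless stated otherwise, CPM are scaled by TMM, a method that sets the bulk of genes level between libraries. This choice matters here: TMM factors were 0.489 to 0.959 in input and 1.4 to 1.59 in IP libraries, and without them the log2 fold change of IP against input rose by a median of 1.15 across all genes. A fold change of IP against input below is therefore relative to the typical gene and is not an amount of RNA recovered.

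RefSeq promoters (GRCr8, 250 bases before to 50 after the start) were at hand for 6 of the 8 genes, all but Hmox1 and Txnip. They are shown for the core of the antioxidant response element, TGACNNNGC, which Nrf2 recognises, searched on both strands. Sequence outside these windows was not searched, so a window without the core does not show that its gene lacks the element. The core occurred in 2 of the 6 promoters, those of Sod2 and Nfe2l2, and in 12.1% of all 33469 promoters of the same length. Capitals mark the match and lower case up to 10 flanking bases, each written 5′ to 3′ along the gene. Both genes lie on the minus strand, and positions count the first transcribed base as 0. The stretch printed for Sod2 spans chr1:50050185-50050213, and the match within it, at bases -35 to -27, reads on the plus strand, opposite the gene. The stretch printed for Nfe2l2 spans chr3:81028950-81028971, and the match within it, at bases 38 to 46, reads on the gene's own strand.
Sod2: ggcgctgccgGCAGGGTCAgcgcctagct
Nfe2l2: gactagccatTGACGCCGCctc
A match of these letters is a description of the window and not evidence of binding, and the expression data hold no measurement of binding at either place. Neither gene passed the threshold in a comparison below.

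**Figure D1:**
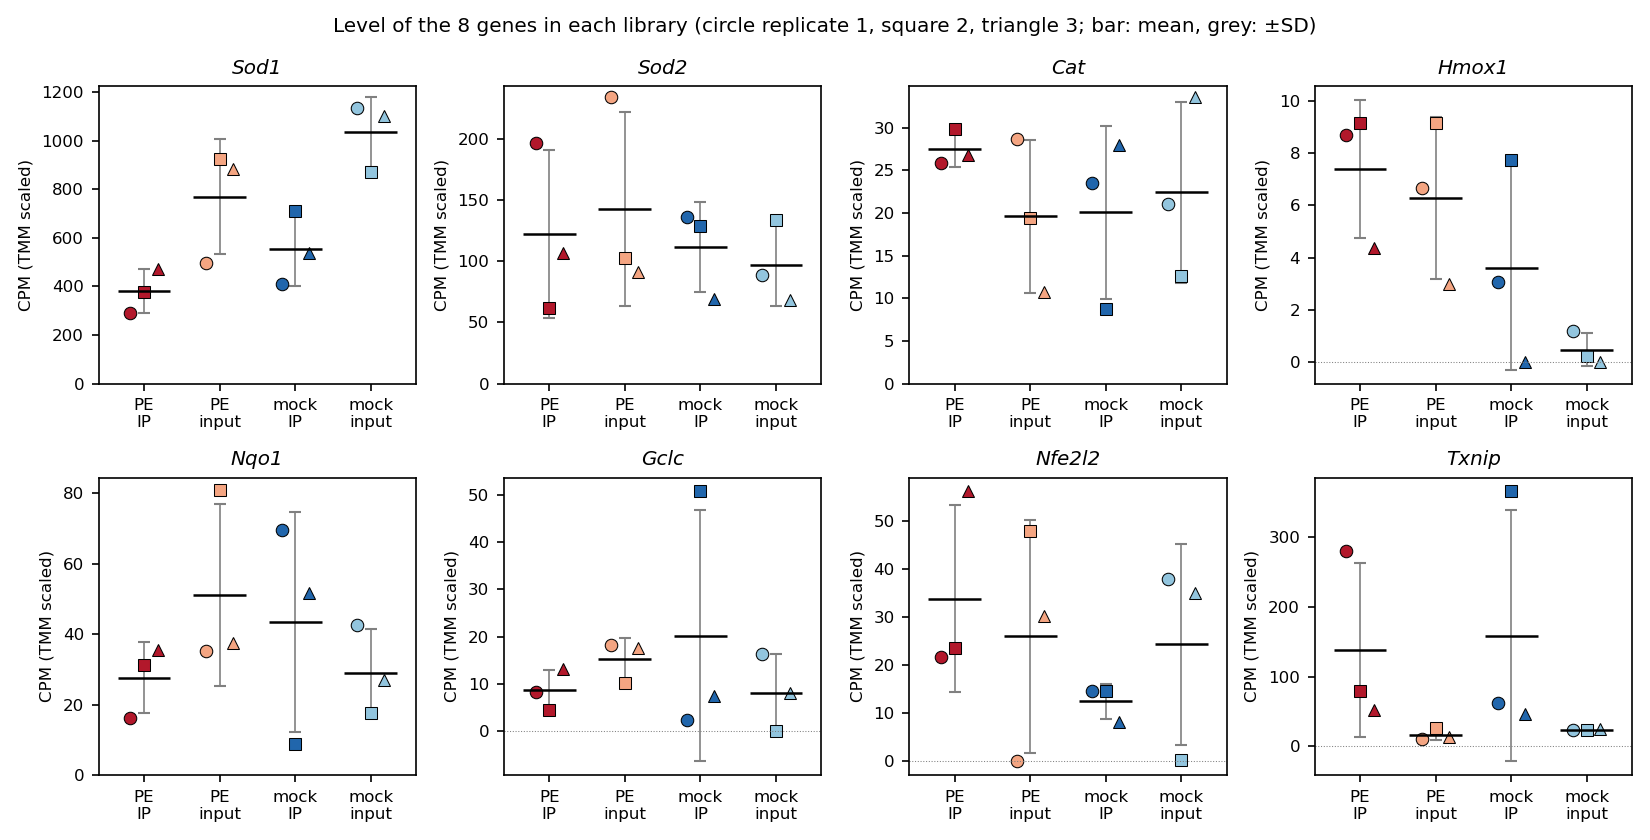
Level of each of the 8 genes in TMM-scaled CPM (vertical axes, linear) in every library, by group; symbols mark the replicate number, black bars the group mean and grey lines the SD (n = 3). Txnip lay between 46.5 and 367 CPM in the 6 IP libraries, all above the highest input at 25.6 CPM, whereas for the other 7 genes the 6 IP and 6 input libraries overlapped.

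The first question was whether the RNA of the Cpeb4 precipitate held more or less of these transcripts than input did. Txnip transcripts were higher in the precipitate and Sod1 transcripts were lower by TMM but not by library totals, while the other 6 genes did not pass the test. Averaged over both treatments, 2 of the 8 genes thus passed (edgeR quasi-likelihood test, Benjamini-Hochberg adjusted p under 0.05 over all genes), and 5.88% of all 10491 genes did. The median log2 fold change of the 8 genes was 0.08, against 0.16 for all genes tested. Within PE cells or within mock cells alone, 0 of the 8 genes passed, where 2.11% and 0.743% of all genes did. In each of these treatments 2 of the 8 genes, Txnip and Sod1, had an unadjusted edgeR p under 0.05. Of all 10491 genes, 1226 did so in PE cells and 1130 in mock cells.

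Txnip, the thioredoxin inhibitor, which also restrains glucose uptake, gave the clearest separation. In PE cells it had 281, 79.5 and 52.7 CPM in the IP libraries of replicates 1, 2 and 3, against 10.3, 25.6 and 13.4 CPM in the inputs. In mock cells it had 62.3, 367 and 46.5 CPM in the IP libraries, against 23.7, 23.8 and 24.2 CPM in the inputs. Every IP library lay above every input library, a full separation of 6 from 6 that 4.66% of all genes showed in either direction and 1 of the 8 genes showed. The mock inputs were nearly level, with a coefficient of variation of 1.24%, while the IP libraries varied widely, with PE IP replicate 1 and mock IP replicate 2 far above the rest. These values rest on 25083 counts in the 6 IP libraries and 590 counts in the 6 inputs.

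Over both treatments, Txnip was 7.49-fold higher in IP than in input, or 2.90 on the log2 scale (SE 0.57, edgeR adjusted p = 0.00783), which is higher than that of 95.4% of the genes tested. The log2 fold change was 3.08 (SE 0.81, edgeR adjusted p = 0.0721) in PE cells and 2.73 (SE 0.80, edgeR adjusted p = 0.188) in mock cells, so neither treatment passed by itself. The size rested in part on the highest libraries. Without mock IP replicate 2 the averaged log2 fold change was 2.13, and without the IP and input of both mock replicate 2 and PE replicate 1 (4 libraries) it was 1.45, each still past the threshold (edgeR adjusted p = 0.00316 and 0.00364). In PE cells alone it was 2.01 without PE IP replicate 1 (edgeR adjusted p = 0.3), and in mock cells alone 1.19 without mock IP replicate 2 (edgeR adjusted p = 0.651). Across all alternatives the averaged difference kept its sign and passed, with an adjusted p of at most 0.0402.

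Sod1, the cytosolic copper-zinc superoxide dismutase, was the abundant member that the TMM scaling placed below input. It had 289, 379 and 472 CPM in PE IP libraries, against 498, 926 and 884 CPM in PE inputs. In mock cells it had 410, 709.9 and 539 CPM in IP libraries, against 1135, 869.8 and 1103 CPM in inputs. Within each treatment the IP libraries lay below all inputs on this scale, and only across treatments did they overlap, because PE input replicate 1 was below mock IP replicates 2 and 3. Of all genes, 22.2% showed no overlap between IP and input in PE cells and 17.9% in mock cells, and among the 8 genes these were Sod1 and Txnip in both.

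Averaged over treatments, Sod1 was 1.95-fold lower in IP by TMM, or -0.96 on the log2 scale (SE 0.23, edgeR adjusted p = 0.017), and not lower by library totals. By TMM the values were -1.02 (SE 0.32, edgeR adjusted p = 0.136) in PE cells and -0.91 (SE 0.32, edgeR adjusted p = 0.27) in mock cells. By library totals Sod1 had 456, 576 and 749 CPM in PE IP and 587, 1035 and 752 CPM in mock IP, against 477, 669 and 501 CPM in PE input and 554, 764 and 576 CPM in mock input. The groups then overlapped and the averaged log2 fold change was 0.22 (edgeR adjusted p = 0.505). Under TMM, what was lower was thus its level relative to the typical gene, and its share of the sequenced counts showed no detectable difference. The TMM call also missed the threshold without mock input replicate 1, PE input replicate 2, PE input replicate 3, mock IP replicate 1 or PE IP replicate 1 (edgeR adjusted p = 0.0512, 0.0559, 0.0531, 0.0533 and 0.0501). Without the 4 libraries named above the averaged log2 fold change was -1.2 (edgeR adjusted p = 4.28e-05). By the DESeq2 Wald test it was -1 (adjusted p = 0.00133). Over all alternatives the adjusted p of Sod1 ranged up to 0.505.

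**Figure D2:**
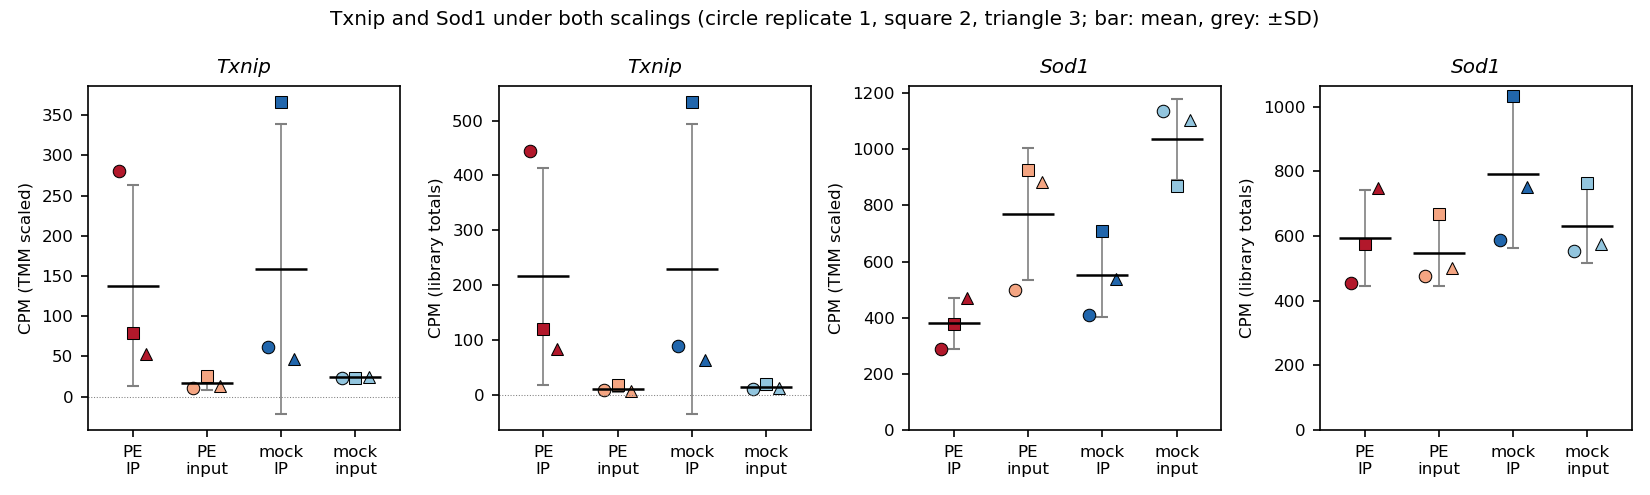
Txnip (left pair of panels) and Sod1 (right pair) in every library, in CPM scaled by TMM and in CPM of the library totals (linear axes; symbols mark the replicate number, bars the mean, grey lines the SD, n = 3). Txnip IP libraries lay above all inputs under both scalings, with 64.9 to 534 CPM against 7.58 to 20.9 CPM by library totals, whereas Sod1 was lower in IP by TMM and overlapped by library totals.

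Sod2 and Cat, the other antioxidant enzymes, showed no detectable difference between precipitate and input. Sod2, the manganese superoxide dismutase of mitochondria, had 197, 62.0 and 107 CPM in PE IP and 136, 129 and 69.3 CPM in mock IP, against 234, 103 and 91.3 CPM in PE input and 88.4, 133 and 68.6 CPM in mock input. Its averaged log2 fold change was -0.01 (SE 0.34, edgeR adjusted p = 0.998), with an interval of 2 SE from -0.68 to 0.66. The highest value in PE IP and in PE input was that of replicate 1 in both, and the IP and input ranges nearly coincided. Cat, the peroxisomal catalase, had 25.9, 29.8 and 26.8 CPM in PE IP and 23.5, 8.69 and 28.0 CPM in mock IP, against 28.7, 19.4 and 10.7 CPM in PE input and 21.0, 12.6 and 33.6 CPM in mock input. The averaged log2 fold change of Cat was 0.18 (SE 0.45, edgeR adjusted p = 0.92), with an interval of 2 SE from -0.72 to 1.08. Mock IP replicate 2, the library with the most missing genes, was the lowest of the 12 for Cat. Both intervals overlap that of Sod1 by TMM, which runs from -1.41 to -0.51, and no difference between genes was tested.

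The classical Nrf2 targets Nqo1, Gclc and Hmox1 also did not pass. Nqo1, a quinone reductase, had 16.2, 31.3 and 35.4 CPM in PE IP, against 35.2, 80.9 and 37.4 CPM in PE input. In mock cells it had 69.6, 8.89 and 51.6 CPM in IP, against 42.5, 17.6 and 26.9 CPM in input. The log2 fold change was -0.89 (SE 0.64, edgeR adjusted p = 0.73) in PE cells and 0.57 (SE 0.64, edgeR adjusted p = 0.884) in mock cells, which averages to -0.16 (SE 0.45, edgeR adjusted p = 0.932). By TMM the fitted values had opposite signs in the treatments, by library totals both were positive (0.19 in PE cells), and the difference between them did not pass (log2 change of enrichment -1.46, SE 0.91, edgeR adjusted p = 1).

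Gclc encodes the catalytic subunit of glutamate-cysteine ligase, which makes the first committed step of glutathione synthesis. It had 8.28, 4.43 and 13.2 CPM in PE IP and 2.36, 50.8 and 7.43 CPM in mock IP, against 18.2, 10.2 and 17.6 CPM in PE input and 16.4, 0 and 8.07 CPM in mock input. The extremes both came from mock replicate 2, whose IP library held 1321 counts and whose input held 0, which allows up to 0.685 CPM. The averaged log2 fold change was 0.24 (SE 0.90, edgeR adjusted p = 0.952), and it was -0.78 without mock IP replicate 2 (edgeR adjusted p = 0.734). In mock cells the log2 fold change was 1.31 (SE 1.29, edgeR adjusted p = 0.844), and -0.73 without that library (edgeR adjusted p = 0.994). In PE cells it was -0.82 (SE 1.26, edgeR adjusted p = 0.95). The sign for Gclc in mock cells was thus decided by 1 library. The averaged value also turned negative, at -0.06, without mock input replicate 2.

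Hmox1, haem oxygenase 1, which breaks down haem, was near the lower end of what these libraries can measure. It had 8.68, 9.16 and 4.36 CPM in PE IP and 3.06, 7.73 and 0 CPM in mock IP, against 6.67, 9.16 and 2.99 CPM in PE input and 1.21, 0.228 and 0 CPM in mock input. The 3 mock inputs together held 6 counts. The count of 0 in mock input replicate 3, the shallowest library, allows up to 4.04 CPM, while the 0 in mock IP replicate 3 allows only 0.139 CPM. The averaged log2 fold change was 1.45 (SE 1.26, edgeR adjusted p = 0.647), with an interval of 2 SE from -1.07 to 3.98. In mock cells it was 2.66 (SE 1.90, edgeR adjusted p = 0.702). Single libraries moved both: without mock IP replicate 2 the log2 fold change was 0.81 averaged and 1.38 in mock cells, without mock input replicate 1 it was 2.29 and 4.34, and without the 4 libraries named above it was 0.49 and 0.85.

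Nfe2l2, the transcription factor gene itself, was nearly missing from 2 of the 6 input libraries. It had 21.8, 23.6 and 56.3 CPM in PE IP and 14.7, 14.6 and 8.22 CPM in mock IP, against 0, 48.0 and 30.2 CPM in PE input and 37.9, 0.228 and 34.98 CPM in mock input. PE input replicate 1 had 0 counts, which allows up to 0.606 CPM, and mock input replicate 2 had 1 count, whereas the other 4 inputs lay between 30.2 and 48.0 CPM. Both libraries were among those that lacked many expressed genes, and the part of this in the Nfe2l2 values was not tested. The averaged log2 fold change of IP against input was -0.28 (SE 0.99, edgeR adjusted p = 0.949), with an interval of 2 SE from -2.25 to 1.69. Without the 4 libraries named above, which include both near-empty inputs, it was -0.86 (edgeR adjusted p = 0.124).

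**Figure D3:**
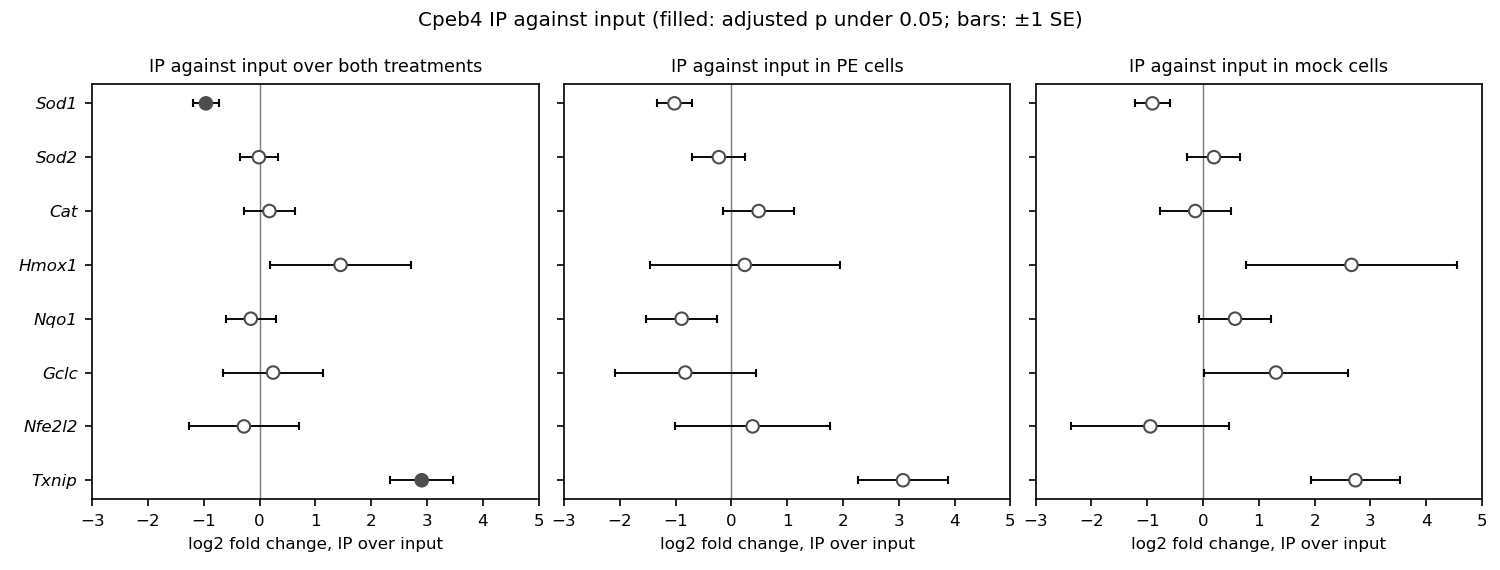
Log2 fold change of Cpeb4 IP over input (horizontal axes) for the 8 genes, averaged over both treatments, in PE cells and in mock cells; bars are 1 SE and filled points have an edgeR adjusted p under 0.05. Txnip at 2.90 and Sod1 at -0.96 are the filled points of the averaged comparison, no point is filled within a treatment, and the bars of Hmox1, Gclc and Nfe2l2 are the widest.

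The next question was whether PE changed these genes, in total RNA or in the precipitate. No change was detected: 0 of the 8 genes passed in the IP libraries and 0 in the inputs, and 0 had an unadjusted p under 0.05 in either. Of all 10491 genes, 581 had an unadjusted edgeR p under 0.05 in IP and 375 in input. Only 0.00953% of all genes passed in IP and 0.00953% in input, which is 1 gene each, so the background was close to nothing as well. The DESeq2 Wald test likewise passed 0 of the 8 genes in either. Of all genes, it passed 28 as higher and 13 as lower in IP, and 14 and 1 in input. It gave no adjusted p to 698 genes in IP and 1089 in input. Levels in these bulk samples cannot tell fewer cells of a type from less RNA per cell. The median SE of the 8 log2 fold changes was 0.69 in IP and 0.71 in input, against 1.13 and 1.14 for all genes tested.

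Hmox1 had the largest fitted difference of the set in input. Its PE inputs at 2.99 to 9.16 CPM lay above its mock inputs at 0 to 1.21 CPM. The log2 fold change was 3.46 (SE 1.95, edgeR adjusted p = 1), with an interval of 2 SE from -0.44 to 7.36, and it was 5.13 without mock input replicate 1. The PE inputs held 117 counts and the mock inputs 6. Such a gap between groups occurred in 9.85% of all genes for PE against mock input, and for Hmox1 1 of the 3 mock inputs was too shallow to show a level of up to 4.04 CPM. In the precipitates Hmox1 overlapped between PE and mock cells (log2 fold change 1.04, SE 1.72, edgeR adjusted p = 1). That value was 2.29 without mock IP replicate 2 and 0.45 without mock IP replicate 3.

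In the precipitates, 1 of the 8 genes, Nfe2l2, did not overlap between treatments, and it did not pass the test. Of all genes, 14.9% did not overlap in this comparison, so the gap is not particular to Nfe2l2. All PE IP libraries, at 21.8 to 56.3 CPM, were above all mock IP libraries, at 8.22 to 14.7 CPM. The means were 33.9 ± 19.4 and 12.5 ± 3.72 CPM (SD, n = 3 each). The log2 fold change was 1.44 (SE 1.41, edgeR adjusted p = 1), with an interval of 2 SE from -1.38 to 4.26. In input the log2 fold change of Nfe2l2 was 0.11 (SE 1.40, edgeR adjusted p = 1), with the near-empty libraries described above falling in 1 group each. With mock replicate 2 and PE replicate 1 left out of IP and input alike, the difference in IP was 1.79 (edgeR adjusted p = 0.121).

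Among the other genes, Sod1 had lower fitted values with PE in both RNA pools without passing. Its log2 fold change was -0.54 (SE 0.32, edgeR adjusted p = 1) in IP and -0.43 (SE 0.32, edgeR adjusted p = 1) in input. Nqo1 had -0.65 (SE 0.64, edgeR adjusted p = 1) in IP and 0.81 (SE 0.65, edgeR adjusted p = 1) in input. For Txnip the values were -0.20 (SE 0.74, edgeR adjusted p = 1) in IP and -0.55 (SE 0.77, edgeR adjusted p = 1) in input. The Txnip inputs overlapped only through PE input replicate 2 at 25.6 CPM, above the mock inputs of 23.7 to 24.2 CPM, whereas the other PE inputs had 10.3 and 13.4 CPM. Sod2, Cat and Gclc overlapped between PE and mock cells in IP and in input.

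**Figure D4:**
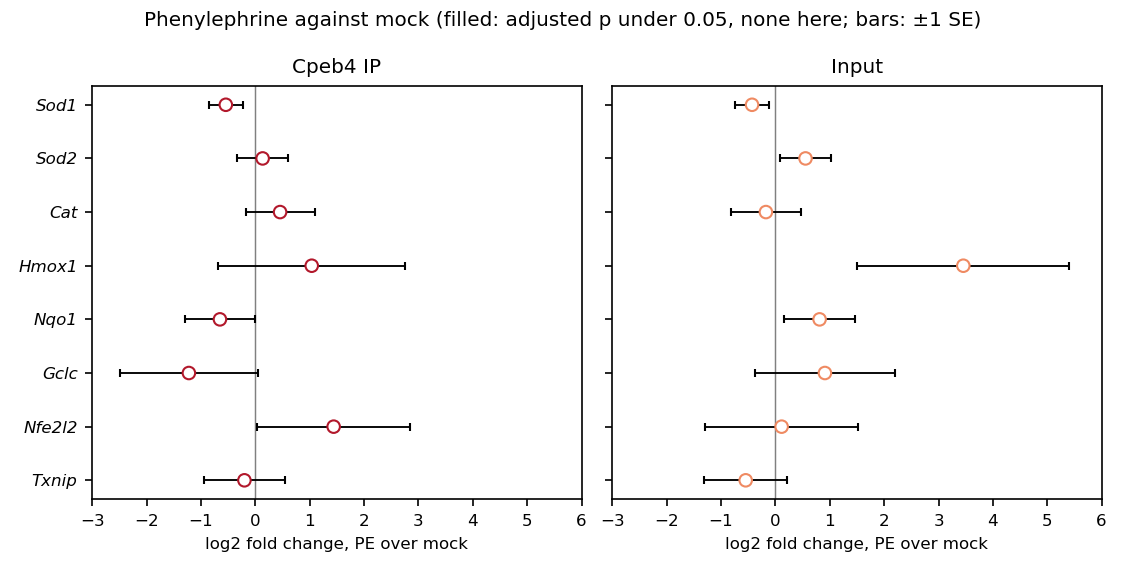
Log2 fold change of PE over mock (horizontal axes) for the 8 genes in Cpeb4 IP libraries and in input; bars are 1 SE, and no point is filled because none had an edgeR adjusted p under 0.05. Hmox1 in input at 3.46 and Nfe2l2 in IP at 1.44 lie farthest to the right, each with a wide bar.

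Whether PE changed the enrichment in the Cpeb4 precipitate was tested as the difference of the IP effects in PE and in mock cells. Here 0 of the 8 genes passed, 0 had an unadjusted p under 0.05, and 0% of all genes passed, with 271 genes at an unadjusted p under 0.05 (edgeR) and 2 genes passing the DESeq2 Wald test. The fitted change for Txnip was 0.35 (SE 1.06, edgeR adjusted p = 1), with an interval of 2 SE from -1.78 to 2.47. Its enrichment in PE cells and in mock cells can therefore not be told apart, and a change of several fold in either direction lies within the interval.

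Of the genes with a mean of at least 10 CPM, 7 of the 8 were compared with 5864 others by the pattern of their 4 group means on the log2 scale, each centred on its own mean. The closest were ENSRNOG00000014178 to Cat, at a distance of 0.07, and ENSRNOG00000001494 to Sod2, at 0.08. Txnip had the most distant nearest gene of the 7, at 0.29. The distance is not scaled to the size of a gene's differences between groups, and Txnip had the largest averaged IP effect of the 8. The 0.29 is therefore not evidence of an unusual pattern apart from that effect.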

How the data were processed

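The authors deposited raw counts per gene for 12 libraries as 1 table with Ensembl rat identifiers and no normalization, per the file headers. Per the submitters' processing notes, the build was Rnor_6.0 and the tools were STAR 2.7, cutadapt 2.5, DESeq2 and featureCounts 1.6.4; the strand setting is not given in the sources used. The 32883 blank lines were skipped. Each column was assigned by the RNA type, treatment and number in its name. The names also carry a letter, A to F. The IP and input of the same number within a treatment share a letter, and no letter is shared across treatments. The main fit did not use this pairing, and the replicate block below did. The 8 members, the lists and the rules were chosen with earlier results of these data known. Of 47357 genes in the reference table, 0 carry an Ensembl identifier, so lists of further pathway genes and of cell type markers could not be run and identifiers nearest in pattern are limited to 2.

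Tests used edgeR 4.0.16 in R 4.3.3 (TMM, filterByExpr, robust quasi-likelihood F-test) in 1 fit of the 4 group means of all 12 libraries, with 6 contrasts and Benjamini-Hochberg adjustment over all 10491 genes. The SE is the log2 fold change divided by the square root of F. The steps were tested on simulated counts. Nothing states that replicates came from separate cultures, so p-values measure the spread between these libraries, which may be technical. Libraries of 1 group differed by a chi-square of at least 7.79 per degree of freedom, so each was kept. Limits from a count of 0 use 3 counts and cover counting error only. Alternatives were DESeq2 size factors, library totals, no filter, the DESeq2 1.42.0 Wald test, the 6 libraries of a comparison, replicate blocks, leaving out each library, and leaving out IP and input of mock replicate 2 and of PE replicate 1 ("the 4 libraries"), some of which earlier results had shown to lack genes.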

Additional observations from a re-analysis of the deposited data

How the results depend on the processing

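For IP against input over both treatments, 2 genes passed as reported, 1 by library totals and 1 to 2 when single libraries were left out. Over all genes, 237 passed as higher and 380 as lower in the reported fit, against 2823 and 65 by library totals. With single libraries left out, 111 to 278 were higher and 259 to 417 lower. In PE cells, where 0 passed, 1 passed by library totals and without a filter (Txnip), 2 by DESeq2 and without the 4 libraries (Txnip and Sod1), and 0 to 1 with single libraries left out. Over all genes in PE cells, 48 were higher and 173 lower as reported, against 641 and 24 by library totals and 158 and 265 without a filter. The DESeq2 Wald test passed 196 and 401, and the fit without the 4 libraries 352 and 623. In PE cells the DESeq2 test gave no adjusted p to 4698 of the 10491 genes, Hmox1 among them, against 307 in mock cells. Its adjusted p values in the 2 treatments, such as 0.0408 for Sod1 in PE cells, thus cover different sets of genes. Without mock IP replicate 2, where Txnip passed, 82 and 246 did. In mock cells, where 0 passed as reported, 1 passed by library totals, without a filter, by the DESeq2 Wald test (Txnip each time) and without the 4 libraries (Sod1). Over all genes in mock cells, 17 were higher and 61 lower as reported, against 842 and 10 by library totals and 156 and 191 without a filter. The DESeq2 Wald test passed 129 and 251, and the fit without the 4 libraries 168 and 349. For PE against mock and the change of enrichment, 0 passed under every alternative run. By library totals the log2 fold changes of IP against input turned positive for Sod1 (0.22 averaged, 0.12 in PE and 0.33 in mock cells), Sod2 (1.00 averaged, 0.72 in PE cells), Nqo1 (1.03 averaged, 0.19 in PE cells), Nfe2l2 (1.09 averaged, 0.55 in mock cells), Gclc in PE cells (0.24) and Cat in mock cells (1.15). That scaling uses no TMM factors, and which of the scalings is right for a precipitate was not tested.

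Values that failed the threshold and changed sign elsewhere were as follows. Sod2 averaged was 0 without a filter, 0.05 without the 4 libraries and -0.28 to 0.25 with single libraries left out. Nqo1 averaged was -0.42 to 0.09, Gclc -0.78 to 0.87 and Nfe2l2 -0.58 to 0.10 with single libraries left out. Without the 4 libraries Gclc was -1.04 averaged and -1.38 in mock cells, where single libraries gave -0.73 to 2.56. For PE against mock, Nfe2l2 in input ranged from -0.65 to 0.71 and Txnip in IP from -1.27 to 1.35, and 0.27 without the 4 libraries. The change of enrichment of Txnip ranged from -0.72 to 1.89. The cause was not tested.

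The replicate block pairs IP and input of 1 number, and so of 1 letter, within a treatment. With it Gclc averaged -0.22 and Nfe2l2 0.63. The same 2 genes passed, Txnip at 2.41 (edgeR adjusted p = 0.0222) and Sod1 at -0.96 (edgeR adjusted p = 0.00673). Pairing by number across treatments gave -0.30 for Nfe2l2 in input and 0.04 for Txnip in IP. Samples of the same number in IP and input deviated together with correlations of 0.0157 to 0.321 in PE and 0.183 to 0.284 in mock cells, and 4 of 6 PE and 5 of 6 mock samples correlated best with their own number. Across treatments 0 of 6 input and 2 of 6 IP samples did so. Same-number correlations there were -0.323 to 0.242 in input and -0.204 to 0.251 in IP. Hmox1 was removed by the filter in the 6 input libraries alone and has no value there for PE against mock, with or without the block. It also has no value for IP against input in the 6 mock libraries alone.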
